A study of Mus musculus with 2 samples.

Results

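The cell-cycle cyclins are the proteins whose rise and fall carries a cell from one division to the next. The 9 genes examined here were chosen by name, with earlier results of these data known: the D-type cyclins Ccnd1, Ccnd2 and Ccnd3, the E-type cyclins Ccne1 and Ccne2, the A-type cyclin Ccna2, the B-type cyclins Ccnb1 and Ccnb2, and cyclin F, Ccnf. A position was a unique chromosome, start and strand in the lists of m6A sites, and it was assigned to a cyclin if it lay in an exon of that gene on the same strand. Of the 9 genes, 8 had at least 1 listed position, among 10912 genes that had any, and they held 197 of 160430 listed positions.

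N6-methyladenosine (m6A) in mRNA is written mainly by the methyltransferase Mettl3. Poly(A) RNA of mouse 129 embryonic stem cells, either wild-type (WT) or knocked out for Mettl3 (KO), was sequenced as native RNA on nanopores, 1 library for each condition, without replicates. The KO cells carry genes for resistance to puromycin and hygromycin where Mettl3 had its exons 5 to 7, a change made with CRISPR, and came from colonies picked under drug selection. Sites were called by 10 tools. Lists for WT and for KO came from Tombo, MINES, Epinano, ELIGOS, Nanom6A, m6Anet and xPore, and 1 list from comparing the libraries came from each of DiffErr, DRUMMER and Nanocompore. xPore also models both libraries together, and how its calls were divided into a WT and a KO list was not stated, so its lists were used as deposited and are not among those called comparison lists here.

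Most cyclins act by binding a cyclin-dependent kinase (CDK), which is inactive without its partner. D-type cyclins answer growth signals and, with Cdk4 or Cdk6, begin the phosphorylation of the retinoblastoma protein. E-type cyclins start DNA replication with Cdk2, cyclin A2 serves replication and the approach to mitosis, and B-type cyclins drive mitosis with Cdk1. Mouse embryonic stem cells divide fast, with a short gap before replication, and each cyclin is removed in time by ubiquitin ligases.

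In total, 167 cyclin positions were in a WT or comparison list and 160 were in a KO list, with 130 in both, 37 in WT or comparison lists only and 30 in KO lists only. The ratio of KO to WT or comparison positions was 0.958 (95% interval 0.766 to 1.20) for the cyclins and 0.834 (0.827 to 0.840) over all positions. Of the 167 positions, 22.2% were in no KO list (37 positions, 95% Wilson interval 16.5 to 29.0), beside 41.0% of all 129045 positions of WT or comparison lists. Of the 160 KO positions, the 30 in no WT or comparison list were 18.8% (13.5 to 25.5), beside 29.2% of all KO positions. The lists hold no read counts, so a position missing from a list cannot be told apart from one with too few reads, and in bulk RNA fewer cells with a transcript and less RNA per cell cannot be told apart either. All intervals cover counting error only, and positions of 1 transcript share their reads.

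Taken gene by gene, the share of WT or comparison positions absent from KO had a median of 16.1% over the 8 cyclins, beside 37.5% over the 5773 genes with at least 10 such positions. It ran from 0% in Ccne1 to 76.9% in Ccne2. The D-type cyclins had 13 of 32 such positions (40.6%, 25.5 to 57.7) and the E-type cyclins 10 of 26 (38.5%, 22.4 to 57.5). The A- and B-type cyclins had 11 of 83 (13.3%, 7.56 to 22.2) and Ccnf 3 of 26 (11.5%, 4.0 to 29.0). These groups were formed by cyclin type after the counts had been seen, and genes of a type differed. The counts were 11 of 22 in Ccnd1 and 2 of 10 in Ccnd3, and 10 of 13 in Ccne2 and 0 of 13 in Ccne1. They were 4 of 33 in Ccna2, 2 of 28 in Ccnb1 and 5 of 22 in Ccnb2. The pooled intervals count positions and do not measure the spread between genes of a type.

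**Figure D1:**
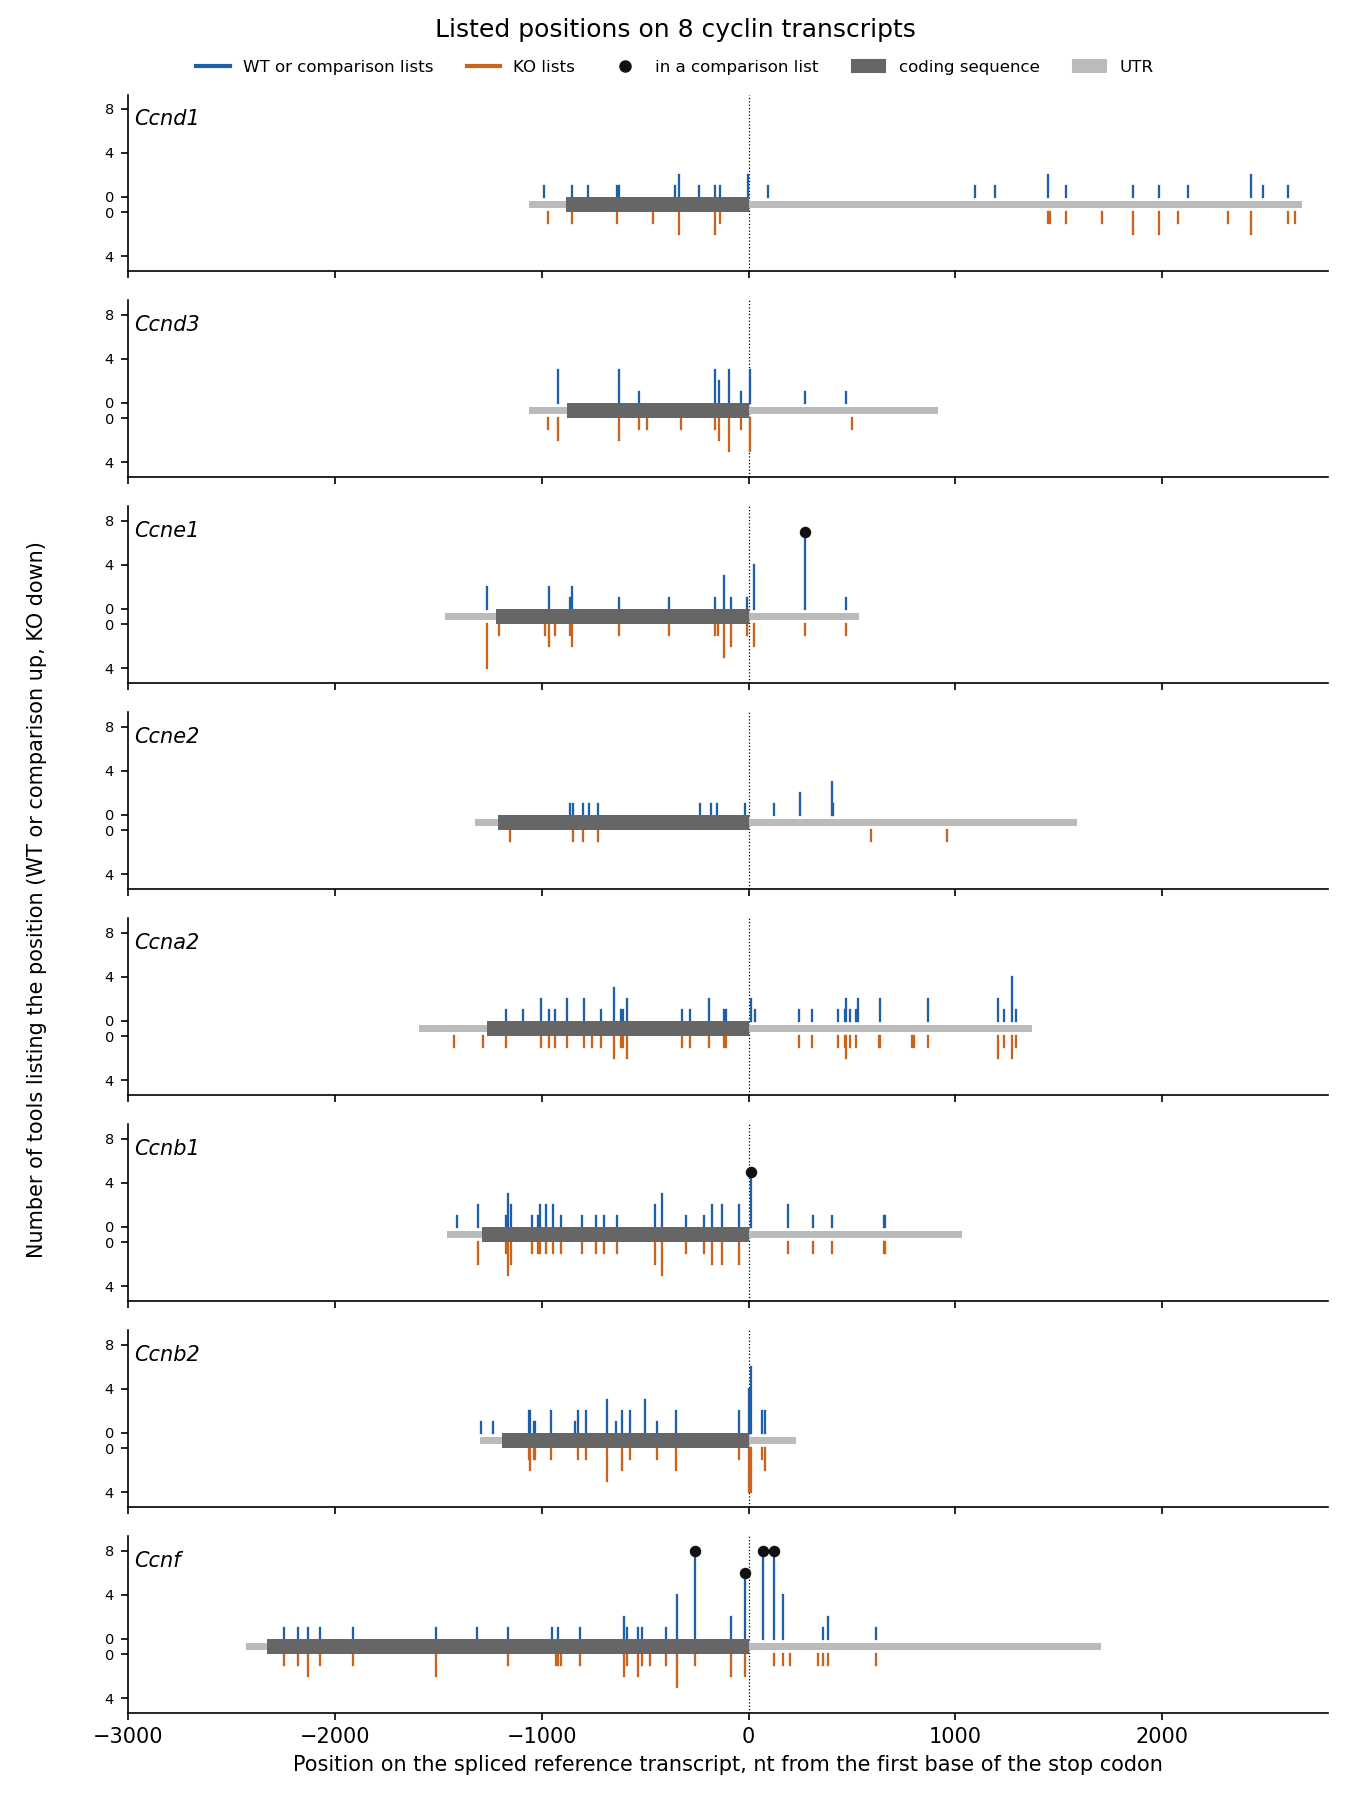
Listed positions on the reference transcripts of the 8 cyclins with positions, drawn to scale in nt from the start of the stop codon. Lines above each transcript give the number of tools that listed the position in WT or in the comparison, lines below give the number of tools in KO, and dots mark the 6 positions in a comparison list, 4 of them in Ccnf.

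Among the D-type cyclins, Ccnd1 (ENSMUSG00000070348, chr7:144929931-144939925 on GRCm38, minus strand) had 29 listed positions, 22 in WT and 18 in KO. Tombo listed 14 positions in WT and 14 in KO, of which 8 were the same. Epinano listed 10 in WT and 3 in KO, and the 3 KO positions were among the 10. m6Anet and Nanom6A listed 0 positions of Ccnd1 in WT, while in KO m6Anet listed 4 and Nanom6A 1. MINES listed 2 in WT and 1 in KO, and the remaining tools listed 0. No position of Ccnd1 had more than 2 tools in WT, and 18 of its 22 WT positions had 1. Its long 3′ UTR of 2676 nt held 11 of the 22 WT positions and 11 of the 18 KO positions.

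Ccnd2 (ENSMUSG00000000184, chr6:127125162-127152193, minus strand) had 0 positions in each of the 17 lists, although its exons hold 142 RRACH positions, the sequence context of m6A in which R is A or G and H is A, C or T. Whether the transcript was present was not tested, since the lists contain called positions only. Ccnd3 (ENSMUSG00000034165, chr17:47505051-47599691, plus strand) had 15 listed positions, 10 in WT and 13 in KO, with 8 in both. Nanom6A listed each of the 10 WT positions of Ccnd3 and 5 of the same positions in KO. Tombo listed 5 positions in WT and 7 in KO, m6Anet 4 and 5, and Epinano 2 and 3. In contrast to Ccnd1, 4 of the 10 WT positions of Ccnd3 rested on 1 tool.

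For the E-type cyclins the lists of the 2 genes were unlike. Ccne1 (ENSMUSG00000002068, chr7:38097984-38107534, minus strand) had 17 positions, and each of its 13 WT or comparison positions was also in a KO list. Such complete overlap occurred in 232 of the 5773 genes with at least 10 WT or comparison positions. Tombo listed 11 positions of Ccne1 in WT and the same 11 plus 2 more in KO. Nanom6A listed 5 in WT and 6 in KO with 3 shared, and m6Anet listed 5 and 4, also with 3 shared. xPore listed 2 in WT and 1 in KO, MINES 1 and 2, and ELIGOS and Epinano each 1 and 0. Nanocompore placed 1 position of Ccne1 in its comparison list.

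Ccne2 (ENSMUSG00000028212, chr4:11191351-11204779, plus strand) had 16 positions, and 10 of its 13 WT positions were in no KO list (76.9%, 49.7 to 91.8). Epinano listed 8 positions in WT and 1 in KO, and Tombo listed 7 in WT and 5 in KO with 1 shared. MINES listed 1 position in WT. Nanom6A and m6Anet listed 0 positions of Ccne2 in either library. Its WT positions thus rested on Epinano, Tombo and MINES, and 11 of the 13 had 1 tool.

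Ccna2 (ENSMUSG00000027715, chr3:36564865-36572150, minus strand) had the most positions of the 9 genes, 39, with 33 in WT and 35 in KO. Nanom6A listed 23 in WT and 19 in KO, 16 of them shared, and Tombo listed 13 in each library with 10 shared. m6Anet listed 7 and 6 with 5 shared. Epinano listed 3 positions in WT and 0 in KO, MINES 1 and 0, and ELIGOS and xPore listed 1 position each in WT that was also in their KO lists. A 3′ UTR of 1369 nt held 16 of the 33 WT positions, up to 1295 nt past the start of the stop codon.

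At 3 positions that Nanom6A listed under Ccna2, the genome does not read RRACH on the minus strand. In the 3′ UTR, 36565718 reads AGTTT on the minus strand but AAACT on the plus strand. For 36565446 these are GGTTT against AAACC, and for 36565436 they are GGTCT against AGACC, so each plus-strand 5-mer is RRACH. Exons of Exosc9, which encodes a subunit of the RNA exosome, cover these 3 positions on the plus strand. The first was listed in WT and KO, and the other 2 in KO only. Which strand the reads came from was not tested. In all, 7 of the 39 Ccna2 positions lay across from an exon of Exosc9. In Ccnd1, 9 positions lay across from exons of a gene on the plus strand, and all 9 read RRACH on the minus strand.

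The 17 list counts of Ccna2 were most like those of Zwint, a kinetochore protein gene, with a cosine similarity of 0.9957 among 3062 genes with at least 20 positions. Kdm1a, a histone demethylase gene, followed with 0.9953 and Fdps, an enzyme gene of isoprenoid synthesis, with 0.9948. The measure was taken over the 17 lists.

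Of the B-type cyclins, Ccnb1 (ENSMUSG00000041431, chr13:100778650-100786570, minus strand) had 28 listed positions, all 28 in WT and 26 of them in KO as well. Nanom6A listed 25 in WT and 25 in KO, with 24 shared. m6Anet listed 9 in WT and 4 in KO, all 4 among the 9, and Tombo listed 6 and 5 with 5 shared. xPore listed 3 in WT and 2 of these in KO, Epinano 2 and 0, and Nanocompore listed 1 in the comparison. Ccnb2 (ENSMUSG00000032218, chr9:70407692-70421547, minus strand) had 22 positions, all 22 in WT and 17 of them in KO. Nanom6A listed 20 in WT and 11 of the same in KO, and Tombo listed 12 and 10 with 10 shared. m6Anet listed 5 positions in each library with 4 shared, and Epinano 5 and 1. MINES and ELIGOS each listed 1 position in both libraries, and xPore 1 in WT. No position of either B-type cyclin was listed in KO alone, as was so for 333 of the 3063 genes with at least 20 listed positions (10.9%).

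Ccnf (ENSMUSG00000072082, chr17:24222198-24251484, minus strand) encodes a cyclin that does not activate a CDK but selects substrates for a ubiquitin ligase. It had 31 positions, 26 in WT or comparison lists and 28 in KO lists, with 23 in both. Tombo listed 13 in WT and 16 in KO with 12 shared, and Nanom6A listed 13 and 12 with 9 shared. m6Anet listed 7 and 4, xPore 5 and 2, Epinano 5 and 1, and MINES 3 and 1. ELIGOS listed 4 positions in WT and 0 in KO. Ccnf was the only one of the 9 cyclins with positions from DiffErr and DRUMMER, which listed 4 each, and Nanocompore listed 3.

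**Figure D2:**
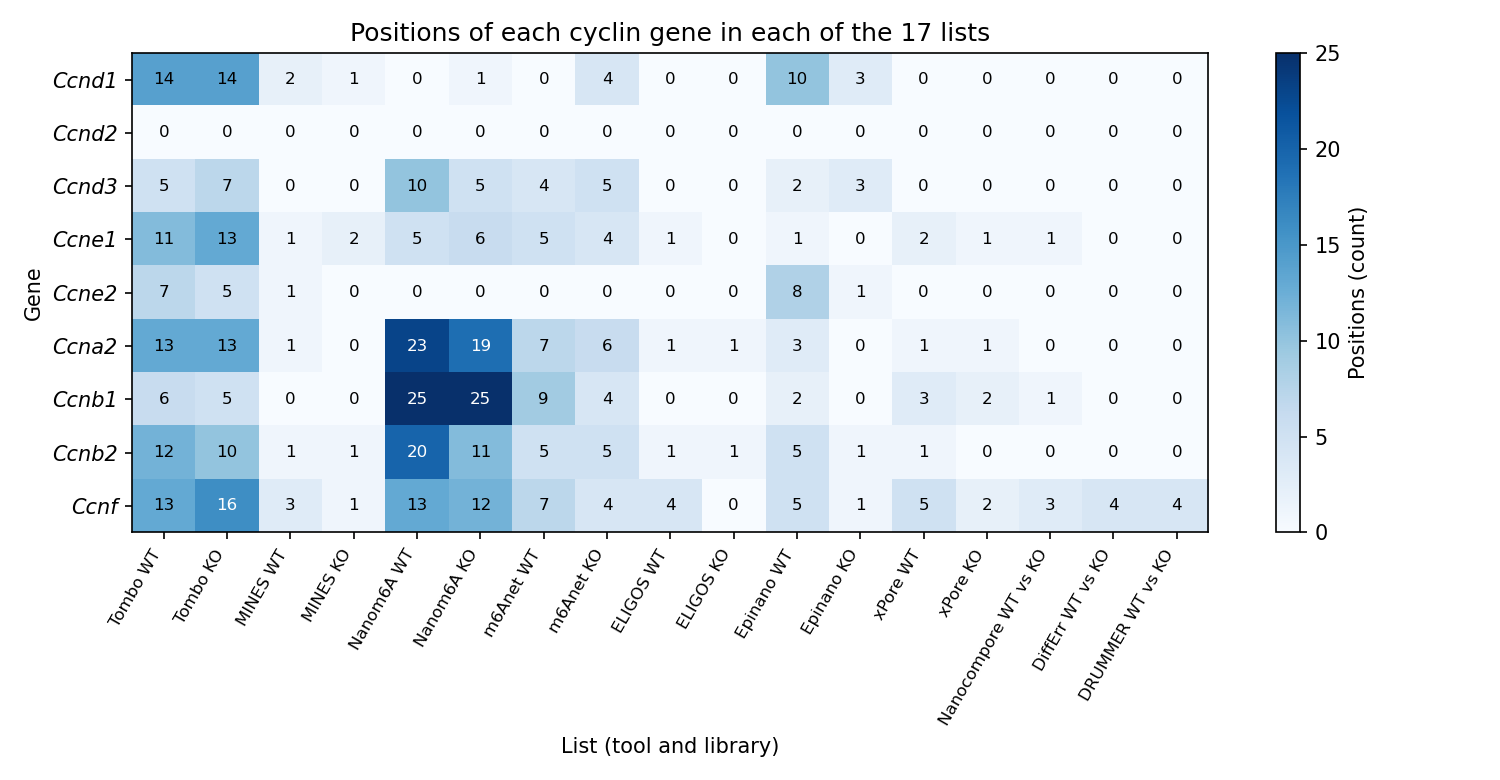
Number of positions of each of the 9 cyclin genes (rows) in each of the 17 lists (columns), with colour from 0 to 25 positions. Ccnd2 is at 0 in every list, Nanom6A lists 20 or more positions in WT for Ccna2, Ccnb1 and Ccnb2, and DiffErr and DRUMMER list positions in Ccnf alone.

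The 3 comparison lists (DiffErr, DRUMMER, Nanocompore) together held 6 cyclin positions, 3.59% of the 167 (1.66 to 7.62), beside 2.45% of all positions in WT or comparison lists. Ccnf held 4 of the 6, and Ccne1 and Ccnb1 1 each. At least 4 such positions were found in 198 of the 10912 genes, and at least 1 in 1587. At least 5 of the 10 tools listed 7 cyclin positions in WT or comparison lists (4.19%, 2.05 to 8.40), beside 3.28% of all positions. These were the 6 comparison positions and 1 position of Ccnb2. The comparison lists add to this number of tools, and the tools are not independent. Per the paper, MINES works on values from Tombo and covers AGACT and GGACH 5-mers only, and Nanom6A uses the signal assignment of Tombo. DiffErr, DRUMMER and the comparison mode of ELIGOS follow a similar principle. The number of tools is thus not a like measure for every 5-mer. With them left out, which was chosen after seeing the data, 5 cyclin positions had at least 5 tools (2.99%, 1.29 to 6.82), beside 2.74% of all positions. Without Ccnf, 2 positions in a comparison list and 3 with at least 5 tools were left.

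The 4 comparison positions of Ccnf all read GGACA and lay in its last exon, exon 17. Counted from the first base of the stop codon, they stood at -260, -17, 69 and 125 nt, with gaps of 243, 86 and 56 nt between neighbours. Those at 24224160, 24223831 and 24223775 were each listed by the same 8 tools, namely Nanom6A, m6Anet, ELIGOS, Epinano, xPore, Nanocompore, DiffErr and DRUMMER, and none of the 3 by Tombo. The position at 24223831 was in no KO list, and the other 2 of these were in the KO list of Nanom6A. The position at 24223917 had 6 tools, Tombo, Nanom6A, ELIGOS, xPore, DiffErr and DRUMMER, and was listed in KO by Tombo and xPore.

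Exon 17 of Ccnf contains 7 GGACA 5-mers, which allows listed and unlisted copies of one sequence in a single exon to be set side by side. After their values had been seen, all 7 were chosen for printing with 8 bases on each side, 5′ to 3′ on the minus strand of GRCm38, with the 5-mer in capitals. From the 5′ end, they span chr17:24224237-24224257, chr17:24224150-24224170, chr17:24223907-24223927, chr17:24223821-24223841, chr17:24223765-24223785, chr17:24223726-24223746 and chr17:24222590-24222610, the first 3 in the coding sequence and the others in the 3′ UTR.
Ccnf GGACA at 24224247: tggccagaGGACAagatccac
Ccnf GGACA at 24224160: cgggccaaGGACAttacgacc
Ccnf GGACA at 24223917: agtgacaaGGACAtgcacctg
Ccnf GGACA at 24223831: tttctctaGGACActgcctat
Ccnf GGACA at 24223775: agctgtcaGGACActgagctc
Ccnf GGACA at 24223736: tacgtgttGGACAgcagccac
Ccnf GGACA at 24222600: atgagaggGGACAgtaatgcc
The copies at 24224247 and 24223736 were each listed in WT by the same 4 tools, Tombo, MINES, Nanom6A and m6Anet, and were in no comparison list. In KO, 3 tools listed the first of these and 1 tool the other. The copy at 24222600, 1300 nt past the stop codon, was in none of the 17 lists. No Ccnf position beyond 615 nt was in any list, although the 3′ UTR is 1700 nt long. For this copy, few reads and a lack of calls thus cannot be told apart. In the 4 copies in a comparison list the base after the 5-mer was C or T, and in the 3 copies in no comparison list it was A or G. That base and its grouping were picked after the sequences and lists had been seen, and the 3 include the unlisted copy at 24222600. Over all GGACA positions in WT or comparison lists, that base was C or T in 391 of 619 positions in a comparison list (63.2%) and in 5984 of 18110 positions in no comparison list (33.0%).

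The comparison position of Ccne1, at 38098242 in the 3′ UTR, read GGACT and lay 275 nt past the start of the stop codon. It had 7 tools, Tombo, Nanom6A, m6Anet, ELIGOS, Epinano, xPore and Nanocompore, and Tombo also listed it in KO. That of Ccnb1, at 100779668, read AGACT 12 nt past the same point, had 5 tools, Tombo, Nanom6A, m6Anet, xPore and Nanocompore, and was in no KO list. Both are printed with the 5-mer in capitals, from chr7:38098232-38098252 and chr13:100779658-100779678 on the minus strand, since they are the remaining cyclin sites in the list of Nanocompore, DiffErr or DRUMMER.
Ccne1 GGACT at 38098242: gacccactGGACTcttcacac
Ccnb1 AGACT at 100779668: actccaatAGACTgctacatc

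At least 3 tools listed 10 cyclin positions in KO, 6.25% of the 160 (3.43 to 11.1), beside 4.30% of all KO positions. Ccnb2 had 3 of them, Ccnd3, Ccne1 and Ccnb1 2 each, and Ccnf 1. None of these 10 was in a comparison list (0%, 0 to 27.8), beside 8.12% of all such KO positions, and 1 of them, in Ccnb2, was among the 7 positions with at least 5 tools above. The most tools in KO were 4, at 3 positions. At 38107333, in the 5′ UTR of Ccne1, a GGACA was listed in KO by Tombo, MINES, Nanom6A and m6Anet but in WT by Tombo and Nanom6A only. At the start of the 3′ UTR of Ccnb2, 3 and 10 nt past the start of the stop codon, an AGACA and a GGACT lay 7 nt apart. The AGACA at 70407918 was listed in WT and in KO by the same 4 tools, Tombo, Nanom6A, m6Anet and ELIGOS. The GGACT at 70407911 had 6 tools in WT, Tombo, MINES, Nanom6A, m6Anet, Epinano and xPore, of which the first 4 also listed it in KO.

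At 6 of the 10 positions, the same 3 tools listed the site in both libraries. At 70412927 in Ccnb2, these were Tombo, Nanom6A and m6Anet. The same held for Tombo, MINES and Nanom6A at 38098636 in Ccne1, and for Nanom6A, m6Anet and xPore at 100785798 and 100781219 in Ccnb1. The remaining ones of the 6 were in Ccnd3 and are not named singly here. The position in Ccnf was the GGACA at 24224247. The sequences of 5 of these sites are printed to set beside those of the comparison lists, in the order chr7:38107323-38107343, chr13:100785788-100785808, chr13:100781209-100781229, chr9:70407908-70407928 and chr9:70407901-70407921, all on the minus strand. The last 2 overlap.
Ccne1 GGACA at 38107333: cctgcggcGGACAcagcttcg
Ccnb1 GAACT at 100785798: gagaccgaGAACTgctcttgg
Ccnb1 GAACT at 100781219: agagttctGAACTtcagcctg
Ccnb2 AGACA at 70407918: cagcccctAGACActggactg
Ccnb2 GGACT at 70407911: tagacactGGACTgccatcct

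In Ccnd1, Ccnd3, Ccne2 and Ccna2, no position was in a comparison list or had at least 5 tools. In Ccnd1, 4 positions had 2 tools, and the one with the fewest KO lists was a GGACA at 144932614, 5 nt before the stop codon, listed by MINES and Epinano in WT and absent from the KO lists. Ccnd3 had 5 positions with 3 tools, of which a GGACT at 47598610 was in the fewest KO lists, that of m6Anet alone. In Ccne2, a GGACT at 11203500, 404 nt past the start of the stop codon, was listed by Tombo, MINES and Epinano in WT and was in no KO list. In Ccna2, a GGACT at 36564964 had 4 tools in WT, Tombo, Nanom6A, m6Anet and Epinano, and Tombo and m6Anet also listed it in KO.

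Along the transcripts, 107 of the 167 WT or comparison positions (64.1%, 56.6 to 71.0) lay in the coding sequence, 53 (31.7%) in the 3′ UTR and 7 (4.19%) in the 5′ UTR. Over all positions on a coding transcript, 56.3% lay in the coding sequence and 40.5% in the 3′ UTR. No more than 200 nt from the start of the stop codon, on either side, stood 38 positions (22.8%, 17.1 to 29.7), beside 22.4% over all positions. The RRACH positions of the same transcripts gave 58 of 314 (18.5%, 14.6 to 23.1) for the cyclins and 12.8% for all genes. In KO, 30 of the 159 positions on these transcripts (18.9%, 13.5 to 25.7) were in the window, beside 20.9% over all KO positions. The 29 positions in KO lists only had 2 there (6.90%, 1.91 to 22). The matching share over all positions in KO lists only was not taken. The 20.9% is not that share, since it also covers KO positions shared with WT. Of the 37 positions in no KO list 10 were in the window (27%, 15.4 to 43.0), and of the 130 in both libraries 28 were (21.5%, 15.3 to 29.4), with overlapping intervals. Over all positions these shares were 20.8% and 23.4%, the reverse order.

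The positions with many tools lay toward the 3′ end. Each of the 7 positions with at least 5 tools was in the last exon of its gene, and 5 of them were in the window around the stop codon (71.4%, 35.9 to 91.8). Of all 167 positions, 71 (42.5%, 35.3 to 50.1) were in the last exon, beside 52.0% over all genes. Over all genes, 87.6% of the positions with at least 5 tools were in the last exon and 49.4% near the stop codon.

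The number of positions for the length of the transcript also differed between cyclins. It was 14.4 WT or comparison positions per kb in Ccnb2, 11.2 in Ccnb1 and 11.1 in Ccna2, and between 4.47 in Ccne2 and 6.50 in Ccne1 in the remaining 5 genes with positions. Of the 526 RRACH positions in the exons of the 8 genes, 166 were in a WT or comparison list (31.6%, 27.7 to 35.7) and 360 in none (68.4%, 64.3 to 72.3), beside 83.0% in none over all genes with a listed position. The listed share was 22 of 27 (81.5%) in Ccnb2, 32 of 66 (48.5%) in Ccna2, 28 of 61 (45.9%) in Ccnb1 and 10 of 110 (9.09%) in Ccnd3. Exons used only in other transcripts weigh on this share, and on the reference transcripts alone it was 52.9% for the cyclins and 25.1% for all genes. Depth was unknown, and the part of expression level in these differences was not tested.

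The 5-mers listed differed between the cyclins. GGAC 5-mers made up 42 of the 167 cyclin positions (25.1%), beside 34.4% of all positions, and AAACT made up 20 (12%), beside 6.76%. Of the RRACH positions in the exons of the 8 cyclins, listed or not, 24.0% were GGAC, 21.5% GAAC and 26.8% AAAC 5-mers. GAAC or AAAC 5-mers made up 76 (45.5%, 38.1 to 53.1), beside 37.1% of all. By gene these were 19 of 28 in Ccnb1, 18 of 33 in Ccna2, 7 of 13 in Ccne2, 11 of 22 in Ccnb2, 5 of 10 in Ccnd3, 4 of 13 in Ccne1, 6 of 22 in Ccnd1 and 6 of 26 in Ccnf. GGAC 5-mers ranged from 1 of 28 in Ccnb1 to 13 of 26 in Ccnf. AGACT was the 5-mer of 17 WT or comparison positions, and 10 of these were in no KO list (58.8%, 36.0 to 78.4), beside 49.8% of all AGACT positions. Of the 20 GGACA positions 6 were in no KO list (30%, 14.5 to 51.9), beside 33.7%, and of the 16 GGACT positions 1 (6.25%, 1.11 to 28.3), beside 47.3%. For the other 9 RRACH 5-mers the share ran from 11.8% to 33.3% in the cyclins and from 28.8% to 55.4% over all positions. These 3 were chosen after the values had been seen.

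An RRACH 5-mer stood at 193 of the 197 cyclin positions (98.0%), beside 99.6% of all. Besides the 3 positions of Ccna2, the exception was a Tombo position in KO at 24231311 in Ccnf, at the edge of exon 12, which reads AGAGT in the genome and AGACA across the splice junction.

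Tool by tool, the share of WT positions found again by the same tool in KO was 75.3% for Tombo (61 of 81, 64.9 to 83.4), 70.8% for Nanom6A (68 of 96, 61.1 to 79.0) and 62.2% for m6Anet (23 of 37, 46.1 to 75.9). Over all positions these shares were 59.7%, 65.4% and 34.4%. Of 12 xPore positions 6 recurred (50.0%, 25.4 to 74.6), beside 24.9% over all positions. MINES repeated 4 of 9 (44.4%, 18.9 to 73.3), ELIGOS 2 of 7 (28.6%, 8.22 to 64.1) and Epinano 8 of 36 (22.2%, 11.7 to 38.1), beside 40.2%, 11.5% and 16.5%. The cyclin shares were above those of all positions for each of the 7 tools. The share of all positions lay below the cyclin interval for Tombo, m6Anet and, narrowly, xPore, and inside it for Nanom6A, MINES, ELIGOS and Epinano.

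**Figure D3:**
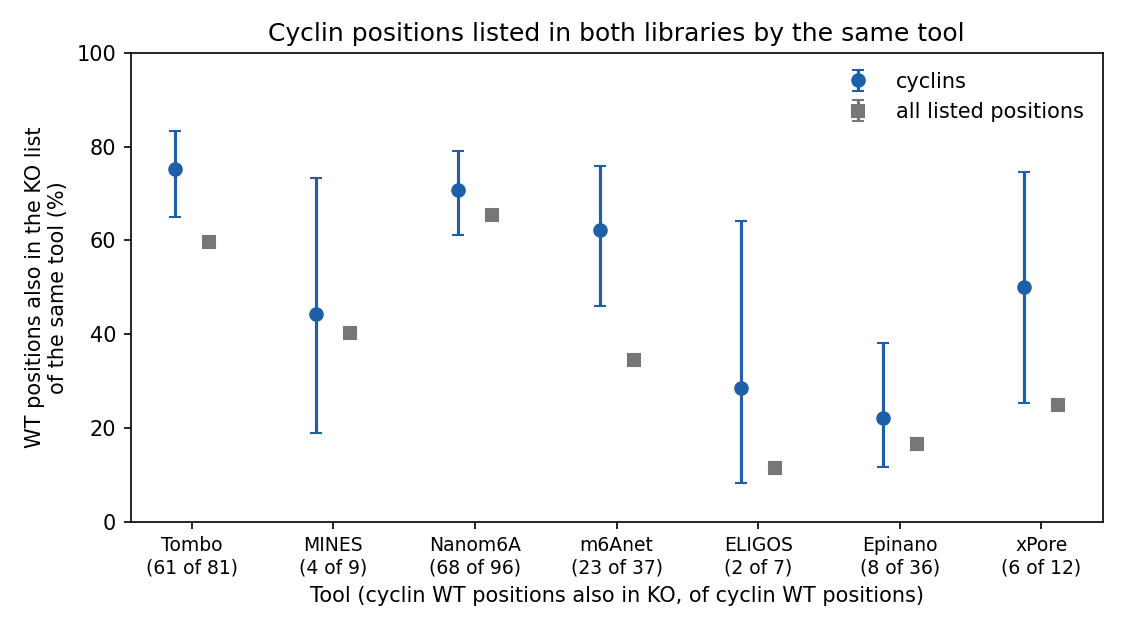
Percentage of WT positions that the same tool also listed in KO, for the cyclins (circles) and for all listed positions (squares), with 95% Wilson intervals as bars, which for all positions are narrower than the symbols. Tombo, Nanom6A and m6Anet repeat most cyclin positions, at 75.3%, 70.8% and 62.2%, and Epinano the fewest, at 22.2%.

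In numbers of positions, Epinano had the lowest ratio of KO to WT, with 36 in WT and 9 in KO (ratio 0.250, 0.106 to 0.529), beside 0.339 over all positions. ELIGOS listed 7 and 2 (0.286, 0.0290 to 1.5), xPore 12 and 6 (0.50, 0.154 to 1.44) and MINES 9 and 5 (0.556, 0.146 to 1.85). Nanom6A listed 96 and 79 (0.823, 0.603 to 1.12), m6Anet 37 and 32 (0.865, 0.522 to 1.43), and Tombo 81 and 83 (1.02, 0.745 to 1.41). The corresponding ratios over all positions were 0.259 for ELIGOS, 0.446 for xPore, 0.703 for MINES, 0.831 for Nanom6A, 0.580 for m6Anet and 0.905 for Tombo. These intervals treat the positions of both lists as separate, although many are the same. Of the positions that a tool listed in 1 library only, those in KO were 1 of 29 for Epinano (3.45%, 0.611 to 17.2), 11 of 39 for Nanom6A (28.2%, 16.5 to 43.8), 0 of 6 for xPore (0 to 39.0) and 0 of 5 for ELIGOS (0 to 43.4). They were 1 of 6 for MINES (16.7%, 3.01 to 56.4), 9 of 23 for m6Anet (39.1%, 22.2 to 59.2) and 22 of 42 for Tombo (52.4%, 37.7 to 66.6). Over all positions this share was 17.2% for Epinano, 33.8% for Nanom6A, 20.7% for xPore, 14% for ELIGOS, 33.5% for MINES, 26.5% for m6Anet and 43.3% for Tombo. For xPore, the ratio and the recurrence depend on how its calls were divided between the lists.

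The tools also divided the cyclins among themselves. Nanom6A had 68 of its 96 WT positions in Ccna2, Ccnb1 and Ccnb2, where Tombo had 31 of 81. Epinano had 18 of its 36 WT positions in Ccnd1 and Ccne2, the 2 genes with positions in which Nanom6A and m6Anet listed 0 in WT. A single tool accounted for 99 of the 167 WT or comparison positions (59.3%, 51.7 to 66.4), beside 65.3% of all. Nanom6A was the only tool at 41 of them (24.6% of the 167, 18.6 to 31.6), Tombo at 33 (19.8%, 14.4 to 26.4) and Epinano at 16 (9.58%, 5.98 to 15). Over all positions these shares were 10.3%, 30.2% and 17%, so that Tombo stood before Nanom6A. Without Nanom6A the share of cyclin positions in no KO list was 33.3% (42 of 126), beside 46.1% of all positions without that tool, and without Tombo and Nanom6A it was 45.2% (33 of 73), beside 66.5%.

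Genes that act with the cyclins were examined as whole lists, and the shares in no KO list below are to be read beside the 41.0% over all positions. That value lies above the intervals of the kinases and of the ubiquitin ligase parts and inside those of the other 4 lists. Of the 46 genes with positions in these lists, 6 had positions in KO lists only (Cdk6, E2f3, Rbl2, E2f8, Fbxw7 and Fbxo4), as did 1109 of all 10912 genes (10.2%). The 5 kinases Cdk1, Cdk2, Cdk4, Cdk6 and Cdk7 all had positions, 71 in WT or comparison lists and 75 in KO, and 21.1% of the first (13.2 to 32.0) were in no KO list. Cdk1, the partner of the B-type cyclins, had 18 positions, each in both libraries, and 1 of them in a comparison list. Cdk6, a partner of the D-type cyclins, had 8 positions, all in KO. Of the 7 CDK inhibitors, 5 had positions, 44 and 35, with 27.3% in no KO list (16.3 to 41.8), and Cdkn1a, which encodes p21, had 27 WT positions of which 2 were in a comparison list. Of the 13 genes for pocket proteins and E2F transcription factors, 11 had positions, 101 and 98, with 35.6% in no KO list (27 to 45.4).

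The 5 genes for the phosphatases and kinases that set CDK activity had 82 and 53 positions, with 48.8% in no KO list (38.3 to 59.4). Cdc25a, a phosphatase that activates CDKs, had 24 WT positions, 16 of them in no KO list, and Wee1, a kinase that inhibits Cdk1, had 16, of which 4 were in no KO list. All 9 genes for ubiquitin ligase parts had positions, 168 and 169, with 31.0% in no KO list (24.5 to 38.3). Cul1, a scaffold of the ligase class that includes cyclin F, had 6 positions in a comparison list, and Fzr1, an activator of the ligase that destroys B-type cyclins, had 3. These were all 9 such positions of this list (5.36% of the 168, 2.84 to 9.87), beside 2.45% of all positions in WT or comparison lists. Fbxw7, which recognises cyclin E, had 20 positions, all in KO. Of 15 other cyclin genes, 11 had positions, 175 and 130, and 45.7% of the WT or comparison positions (38.5 to 53.1) were in no KO list. By gene, this ran from 2 of 11 in Ccnh to 14 of 15 in Ccnt2, a cyclin of transcription elongation.

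Markers were read from the same lists. All 9 embryonic stem cell markers had positions, 235 in WT or comparison lists and 185 in KO lists, with 24.3% of the first (19.2 to 30.1) in no KO list, close to the 22.2% of the cyclins. Esrrb had the most (50 and 38), and each of the 9 had a position in a comparison list, as 1587 of the 10912 genes did. Such positions were 23 of the 235 (9.79%, 6.61 to 14.3), beside 2.45% of all. Of 6 fibroblast markers, Vim had 9 WT and 2 KO positions, Thy1 3 and 1, and Col1a1 0 and 3, while Col1a2, Col3a1 and Dcn had 0. Of 7 markers of early differentiated cells, Sox17 had 12 WT and 0 KO positions, and Gata4, Gata6, T, Pax6, Sox1 and Foxa2 had 0 in all lists. Mettl3 itself had 7 WT and 0 KO positions in exons 1 to 4, 2 and 0 in the replaced exons 5 to 7, and 4 and 5 in exons 8 to 11. The part of these differences in the cyclin counts was not tested.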

How the data were processed

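The authors basecalled and aligned the reads of 1 WT and 1 Mettl3 KO library, ran each tool and deposited 17 lists of genome positions (build mm10, per the submitters' processing notes, the same assembly as GRCm38). The deposited lists give position, strand and transcript or gene, with no score, methylation rate or coverage, so the depth per site is unknown. For the study's evaluation, cut-offs were set for each tool where agreement with antibody-based m6A maps was best by F1 score. These covered sites with a minimum number of reads, which was higher for m6Anet than for the other tools. The deposited lists are not stated to be the ones made by this rule and were not taken as such. The values of their cut-offs are not given in the sources used here.

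The members and lists of genes were chosen with earlier results of these data known. Positions were placed in exons of GENCODE M21, a later release than the authors used, and 5-mers and printed sequences were read from the RefSeq FASTA of GRCm38 on the listed strand. Ccnd3 positions listed by several tools in KO are not reported one by one here. At the 531 list lines on cyclin positions, all 356 transcript identifiers were found, each of a cyclin, with the listed transcript position within 1 nt, and all 175 Nanom6A symbols matched. The reference transcript was the coding one with the most listed positions, then the longest coding sequence. Shares have 95% Wilson intervals, and the interval of a ratio was derived from an exact binomial interval, which ignores that many positions are in both lists. With 1 library per condition, no test across libraries was made. Positions named singly were those with the most tools in each gene (ties: fewest KO lists, then the most 5′) and those in a comparison list. Outside Ccnd3, those with at least 3 tools in KO were also named. The similarity named the 3 highest cosines to the cyclin with the most positions. Alternatives changed the transcripts, 5-mers, joining of positions within 5 bp, tools, comparison lists, KO rule, stop codon window and members. Functions were tested on simulated data. Python 3.11.15, numpy 2.4.6, scipy 1.17.1 and matplotlib 3.10.9 were used.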

Additional observations from a re-analysis of the deposited data

How the results depend on the processing

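Of 66 values under other settings, 55 lay within the 95% interval of the reported value or, for counts, within 1.5 times of it. The other 11 were these. Counted once per line of a list, the cyclins had 531 positions in place of 197. Without Tombo, 71.6% of the WT or comparison positions had 1 tool and 25.3% of the RRACH positions were listed. On the reference transcripts alone, 52.9% of the RRACH positions were listed. A window of 100 nt around the stop codon held 12.6% of the WT or comparison positions and one of 400 nt held 34.7%, as the window itself implies. Chosen after seeing the data, the lists without Nanom6A gave 33.3% of positions in no KO list, and those without Tombo and Nanom6A gave 45.2% and a ratio of KO to WT of 0.658. Also chosen after seeing the data, the cyclins without Ccnf had 2 positions in a comparison list and 3 with at least 5 tools. The cause of these shifts was not tested, except where the setting itself counts fewer tools, genes or bases.

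No paired analysis was possible because each condition had 1 library, and for the same reason none could be left out. Other score cut-offs and a coverage minimum could not be run, since the lists hold neither. Leaving out positions in exons of more than 1 gene removed 0 of the 197. Depth limits what an unlisted position means: Ccnd2, and tools with 0 positions in a gene, may have had few reads or few calls, which cannot be told apart.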
